A study of Mus musculus with 4 samples.

Results

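The transcripts of 10 NF-κB genes were followed in MEF cells with and without Top2β. They encode the 5 transcription factor subunits (Rela, Rel, Relb, Nfkb1 and Nfkb2), the inhibitors Nfkbia, Nfkbie and Tnfaip3, and the kinases Ikbkb and Ikbke. The genes were listed by name, with earlier results of these data known, and all 10 were found by symbol among the 54842 genes of the deposited table. MEF cells are fibroblasts cultured from mouse embryos. Sequencing was done on rRNA-depleted total RNA, with 2 libraries for wt MEF cells and 2 for Top2β-null MEF cells, to examine a topological role of Top2β in the transcription of major satellite repeats. Both groups were untreated and were kept in DMEM with fetal serum. The Top2β-null cells were derived from Top2β-null mice and were received from other laboratories, so that genotype and origin of the cells cannot be told apart. No source says that the libraries of a group came from separate cultures, so p-values measure the spread between these libraries, which may be technical.

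NF-κB proteins bind DNA as dimers and are known for turning on inflammatory and survival genes, in fibroblasts as in immune cells. In resting cells, IκB proteins hold the dimers in the cytoplasm. The IKK kinases mark IκB proteins for degradation, or start the processing of the Nfkb2 precursor in the non-canonical branch, and Tnfaip3 trims ubiquitin chains and so dampens the signal. Several genes of the pathway, among them Nfkbia, Nfkbie, Tnfaip3, Nfkb2, Rel and Relb, are themselves NF-κB target genes, which makes feedback loops.

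The sequence just before the start site is shown for the members that were furthest apart between genotypes (Nfkbie and Tnfaip3) and for Rel and Nfkbia, all from RefSeq on GRCm38.p6. Each line gives the 130 bases before the annotated start, read in the direction of the gene, and capitals mark a match to the 10-base kB consensus on either strand, whose matches may overlap. The stretches lie at chr17:45555570-45555699 on the plus strand for Nfkbie and, on the minus strand, at chr10:19015411-19015540 for Tnfaip3, chr11:23770970-23771099 for Rel and chr12:55492648-55492777 for Nfkbia. GENCODE M21 places no exon in the stretches of Nfkbie, Tnfaip3 and Nfkbia, and 1 exonic base of Rel itself in that of Rel.
Nfkbie: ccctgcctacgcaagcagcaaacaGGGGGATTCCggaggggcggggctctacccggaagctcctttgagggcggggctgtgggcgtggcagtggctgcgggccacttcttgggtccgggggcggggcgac
Tnfaip3: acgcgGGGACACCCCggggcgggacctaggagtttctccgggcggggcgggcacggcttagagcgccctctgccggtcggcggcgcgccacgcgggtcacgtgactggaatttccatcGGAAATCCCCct
Rel: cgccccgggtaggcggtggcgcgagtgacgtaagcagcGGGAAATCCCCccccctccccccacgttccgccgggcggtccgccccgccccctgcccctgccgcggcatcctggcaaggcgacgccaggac
Nfkbia: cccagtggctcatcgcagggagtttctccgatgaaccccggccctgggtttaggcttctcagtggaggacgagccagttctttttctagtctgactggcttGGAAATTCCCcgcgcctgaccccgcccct

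The matches began 106 bases before the start of Nfkbie, 125 and 12 bases before the start of Tnfaip3 shown here, and 29 bases before that of Nfkbia. A second RefSeq window of Tnfaip3, at chr10:19011914-19012213, held no match. In Rel, matches that overlap began 92 and 91 bases before the start. The Nfkb2 gene has 3 annotated starts with a window each. Its first window held overlapping matches 39 and 38 bases before the start and another 11 bases before it. Over windows from 250 bases before to 50 bases after a start, 7 of the 10 windows of the members held a match, against 8.46% of all 32851 RefSeq windows. The 10 windows belong to 7 members, of which Rela and Ikbke had no match, and the windows of 1 gene can overlap. A match is a description of the sequence, and no binding was measured here. Relb, Nfkb1 and Ikbkb had no entry.

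The counts of the libraries summed to between 133116830 and 149647278. Values are given as normalized counts, which are counts scaled by the TMM factors of edgeR to a common library size, and differences as log2 fold changes of Top2β-null over wt MEF cells with the standard error (SE). Top2b itself stood at 18259 and 18465 normalized counts in wt and at 3879 and 3789 in the Top2β-null libraries, 20.9% of the wt mean (log2 fold change -2.26, SE 0.03, edgeR adjusted p = 6.6e-19). Fibroblast markers were present in both genotypes, with 11 of 12 over the mean of 100 normalized counts, and their sum was 1315972 and 1340201 in wt against 897694 and 902736 in Top2β-null libraries. The most abundant markers were Fn1, Vim and Col1a1, which were lower in Top2β-null MEF cells, and Col1a2, which was at 97.4% of wt and did not pass the test. Col1a1 and Col3a1 were called lower, while Dcn (31.8-fold), Thy1 (4.21-fold), Pdgfrb (3.68-fold) and Pdgfra (2.24-fold) were called higher. Markers of leukocytes summed to 3333 and 3378 against 2167 and 2206, with 7 of 14 tested and Tyrobp and Adgre1 at 0 counts in all 4 libraries. Within this list Cd68 fell, from 1641 and 1688 to 302 and 289 normalized counts, and Csf1r and Fcer1g were higher by the adjusted p of edgeR. Those of endothelial cells summed to between 164.2 and 166.5 in wt and between 252.7 and 258.5 in Top2β-null MEF cells. Of the 4 tested among 6, Kdr rose 2.91-fold, Tek fell, and Pecam1 and Cdh5 did not pass the test. Epithelial markers summed to between 83.8 and 92.7 and between 23.8 and 26.7, with 3 of 7 tested. Itgam of the leukocyte list passed the filter on low counts through the Top2β-null libraries alone, and Tek of the endothelial list and all 3 epithelial markers through the wt libraries alone, which fixed their directions. The part of these marker differences in the results was not tested. In a bulk culture, fewer cells that express a gene and less RNA per cell cannot be told apart.

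Tnfaip3 and Nfkbie were the members that changed most between the genotypes, and they went in opposite directions. Tnfaip3 fell to 27.7% of its wt level, and Nfkbie rose 2.02-fold. Among the subunits, Relb, Nfkb1, Rel and Rela rose by smaller amounts, from 1.57-fold down to 1.1-fold, while Nfkb2 did not pass the test. Of the kinases, Ikbke rose 1.31-fold and Ikbkb fell to 91.1%.

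With the 3 cut-offs of the study (adjusted p under 0.05, log2 fold change past 1 in either direction, mean over 100 normalized counts), 1 member of 10 was called higher and 1 was called lower. Of all 26566 features tested, 5.27% were called higher and 4.97% lower. A call needs a mean over 100, so these 1399 and 1320 features all lie among the 17952 that reached it. By the adjusted p of edgeR alone, 6 members were higher and 2 were lower in Top2β-null MEF cells. Among the 17952 features with a mean over 100 normalized counts, 36.7% were higher and 38.3% were lower by the same measure, so a small difference that passes the test is common in these libraries. The libraries of the genotypes did not overlap for 9 of the 10 members, 7 of them higher and 2 lower in Top2β-null MEF cells, against 42.5% and 43.8% of those features. All 10 members passed the filter on low counts. Their median log2 fold change was 0.21, and that of all features was 0.0027.

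**Figure D1:**
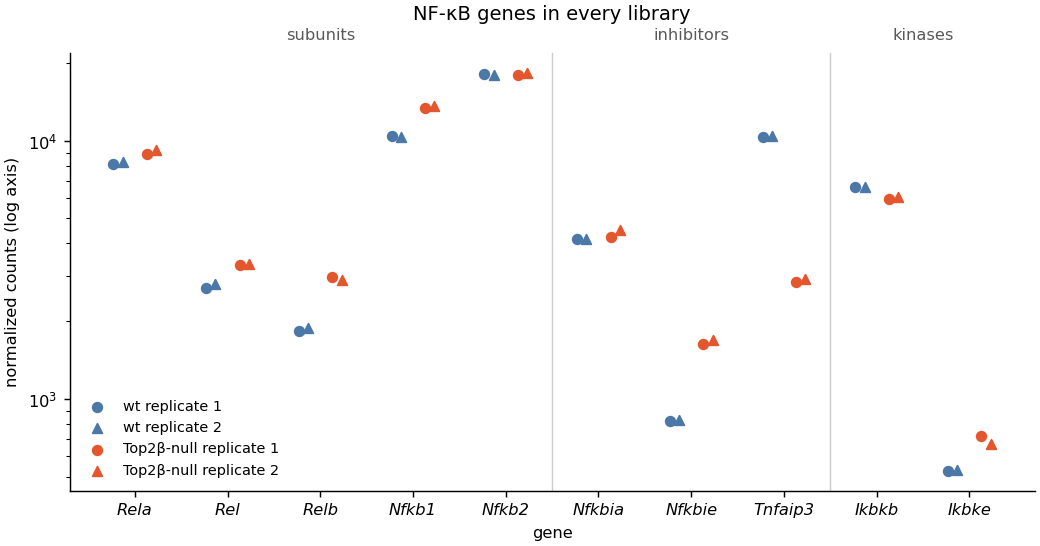
Normalized counts (log axis) of the 10 NF-κB genes in every library, with wt in blue and Top2β-null in orange, replicate 1 as a circle and replicate 2 as a triangle. Tnfaip3 lies near 10386 normalized counts in wt and near 2881 in Top2β-null MEF cells, Nfkbie goes from a mean of 824 to one of 1665, and the points of Nfkb2 overlap.

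The subunits with a transactivation domain, Rela, Rel and Relb, were higher in Top2β-null MEF cells. Rela (ENSMUSG00000024927.7, chr19:5637483-5648130), the p65 protein of the canonical dimer, stood at 8134 and 8281 normalized counts in wt and at 8851 and 9215 in Top2β-null libraries. Both Top2β-null libraries lay above both wt libraries, by a small step. The means of 8207 ± 104 and 9033 ± 257 (SD, n = 2 each) were 1.1-fold apart (log2 fold change 0.14, SE 0.03, edgeR adjusted p = 0.00036). Rel (ENSMUSG00000020275.9, chr11:23736847-23770970), the c-Rel protein best known from lymphocytes, had 2682 and 2777 normalized counts in wt and 3304 and 3319 in Top2β-null MEF cells. Again the groups did not overlap, and the means of 2729 ± 67.3 and 3311 ± 10.7 (SD, n = 2) differed 1.21-fold (log2 fold change 0.28, SE 0.04, edgeR adjusted p = 9.9e-06). Relb (ENSMUSG00000002983.17, chr7:19606217-19629438), the partner of p52 in the non-canonical branch, had the widest difference of the subunits. Its counts were 1838 and 1884 in wt and 2971 and 2880 in Top2β-null libraries after normalization. The gap between the groups was many times the gap within them, with means of 1861 ± 32.2 and 2926 ± 64.5 (SD, n = 2), 1.57-fold apart (log2 fold change 0.65, SE 0.04, edgeR adjusted p = 1.1e-09).

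The precursor subunits Nfkb1 and Nfkb2 did not move together. Nfkb1 (ENSMUSG00000028163.17, chr3:135584655-135691547), which gives p105 and p50, had 10437 and 10337 normalized counts in wt and 13439 and 13616 in Top2β-null MEF cells. All Top2β-null values were above the wt values, and the means of 10387 ± 70.9 and 13528 ± 126 (SD, n = 2) lay 1.3-fold apart (log2 fold change 0.38, SE 0.02, edgeR adjusted p = 9.8e-10). Nfkb2 (ENSMUSG00000025225.14, chr19:46304320-46312385), which gives p100 and p52, had 18126 and 17932 normalized counts in wt and 18006 and 18339 in Top2β-null MEF cells. Here the groups overlapped, with means of 18029 ± 137 and 18172 ± 235 (SD, n = 2). The log2 fold change was 0.01 with an SE of 0.02 (edgeR adjusted p = 0.7). Nfkb2 shares 299 exonic bases with Psd on the opposite strand, a gene with 4342 and 4800 counts in wt and 3197 and 3438 in Top2β-null libraries before normalization. The library kit keeps the strand, and the strand setting of the counting is not given in the sources used here. The log2 ratio of the Nfkb2 count to the Nfkb1 count was 0.796 and 0.795 in wt and 0.422 and 0.430 in Top2β-null libraries, a difference of -0.37 against a pooled SD of 0.0038. An exact two-sided permutation test cannot go below p = 0.33 with 2 libraries a group, and it gave 0.33 here.

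**Figure D2:**
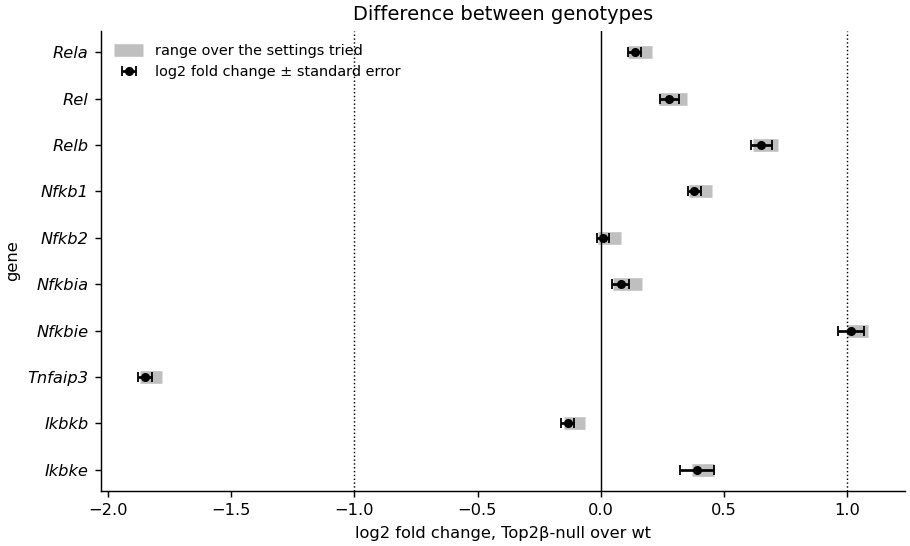
Log2 fold changes of the 10 genes, Top2β-null over wt MEF cells, with the standard error as a bar and the range over the settings tried in grey. Dotted lines mark the study's cut-off of 1 in either direction. Tnfaip3 at -1.85 is past the lower line and Nfkbie at 1.02 sits on the upper line.

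The 3 inhibitors each showed another pattern. Nfkbia (ENSMUSG00000021025.8, chr12:55489410-55492647) encodes IκBα, which is degraded and made anew within a signalling pulse. It stood at 4147 and 4150 normalized counts in wt and at 4244 and 4529 in Top2β-null libraries. The Top2β-null values were both above the wt values but were wide apart from each other, and the difference did not pass the test (means 4149 ± 2.28 and 4387 ± 202, SD, n = 2, log2 fold change 0.08, SE 0.04, edgeR adjusted p = 0.062). Without Top2β-null replicate 1 the log2 fold change was 0.17 with an adjusted p of 0.00069 by edgeR, and 4 other settings also gave an adjusted p below 0.05. Nfkbie (ENSMUSG00000023947.8, chr17:45555703-45563169) encodes IκBε, a slower inhibitor of Rela and Rel dimers. Its values were 823 and 825 normalized counts in wt and 1635 and 1696 in Top2β-null MEF cells. The groups were far apart, at means of 824 ± 1.62 and 1665 ± 42.6 (SD, n = 2), which is 2.02-fold (log2 fold change 1.02, SE 0.05, edgeR adjusted p = 6.2e-11). This value is just past the cut-off of 1, and without wt replicate 1 it was 0.999, so that the call rests on that library.

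Tnfaip3 (ENSMUSG00000019850.11, chr10:19000910-19015657) was the member with the largest difference under every setting tried. It encodes an enzyme that edits ubiquitin on the signalling complexes of TNF and Toll-like receptors and ends their signal. The normalized counts were 10336 and 10436 in wt and 2839 and 2923 in Top2β-null MEF cells. No Top2β-null library came near the wt libraries, and the means were 10386 ± 70.2 and 2881 ± 59.4 (SD, n = 2). The log2 fold change was -1.85 with an SE of 0.03 (edgeR adjusted p = 1.5e-17). Over all settings it stayed between -1.87 and -1.78.

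The kinases Ikbkb and Ikbke differed in opposite directions, both by less than the cut-off. Ikbkb (ENSMUSG00000031537.15, chr8:22659212-22706589) encodes IKKβ, the kinase that phosphorylates IκB proteins in the canonical branch. It had 6609 and 6591 normalized counts in wt and 5964 and 6067 in Top2β-null libraries. The Top2β-null values lay below the wt values, with means of 6600 ± 12.5 and 6016 ± 72.8 (SD, n = 2, log2 fold change -0.13, SE 0.03, edgeR adjusted p = 0.00045). With the counts scaled to the library totals the log2 fold change was -0.06 and the adjusted p of edgeR was 0.061. Without Top2β-null replicate 1 the log2 fold change of Ikbkb was -0.08. Ikbke (ENSMUSG00000042349.13, chr1:131254343-131279606) encodes IKKε, a kinase of the interferon response. The values were 526 and 530 normalized counts in wt and 717 and 670 in Top2β-null MEF cells. The groups did not overlap, and the means of 528 ± 3.13 and 693 ± 33.3 (SD, n = 2) were 1.31-fold apart (log2 fold change 0.39, SE 0.07, edgeR adjusted p = 0.00011). Antisense transcripts share 65 and 159 exonic bases with Ikbke and had at most 41 counts in any library. The log2 ratio of Ikbke to Ikbkb was -3.652 and -3.636 in wt and -3.057 and -3.180 in Top2β-null libraries, a difference of 0.53 with a pooled SD of 0.062 (exact two-sided permutation p = 0.33, the smallest possible).

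To compare levels between genes, the normalized counts were divided by the length of all exons in kilobases (kb). On this per-length scale, Nfkb2 had the highest level in both genotypes, with 3933 ± 29.9 in wt against 3964 ± 51.2 in Top2β-null MEF cells (SD, n = 2), followed by Rela and Nfkbia. The order in wt went on with Tnfaip3 (1437 ± 9.72), Nfkb1 (861 ± 5.87), Relb (479 ± 8.29), Rel (366 ± 9.02), Ikbkb (346 ± 0.65), Nfkbie (271 ± 0.53) and Ikbke (58.6 ± 0.35). In Top2β-null MEF cells Tnfaip3 went from rank 4 to rank 8, at 399 ± 8.21, and Nfkbie from rank 9 to rank 6, at 547 ± 14. No neighbours in either order overlapped between their 2 libraries. The order depends on the length used, because the exons of Nfkb1 and Ikbkb sum to 12061 and 19078 bases while their longest coding transcripts have 4117 and 3977. With those transcripts, a choice made after the lengths were seen, Nfkb1 moved to rank 4 and Ikbkb to rank 6 in wt, and Tnfaip3 still went down to rank 8.

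The make-up of the subunit transcripts was compared as the share of each subunit in the sum of the 5, per kb of exon. How large a share is depends on the length used. With the longest coding transcript, wt means of Nfkb1 and Nfkb2 were 2523 and 4688 per kb, against 861 and 3933 with all exons. Nfkb2 made up 47.6% and 47.0% of the subunit RNA in wt and 43.0% and 42.9% in Top2β-null libraries, a difference of -4.34 percentage points with a pooled SD of 0.32. Relb made up 5.70% and 5.83% in wt and 8.38% and 7.96% in Top2β-null libraries, 2.40 points more with a pooled SD of 0.22. For Nfkb1 the shares were 10.4% and 10.3% in wt and 12.2% and 12.1% in Top2β-null libraries. The share of Rel was 4.33% and 4.47% in wt against 4.85% and 4.77%. These 4 shares did not overlap between the genotypes, each with an exact two-sided permutation p of 0.33, the smallest possible. Rela kept about the same share, 31.9% and 32.4% in wt and 31.6% and 32.2% in Top2β-null libraries, and its groups overlapped. The log2 ratio of Relb to Rela was -2.146 and -2.136 in wt and -1.575 and -1.678 in Top2β-null MEF cells, 0.52 higher with a pooled SD of 0.052. That of Nfkbia to Rela was close in the genotypes, -0.972 and -0.996 in wt and -1.060 and -1.025 in Top2β-null libraries, a difference of -0.06 with a pooled SD of 0.022. These 4 ratios and 5 shares were 9 comparisons, and none can pass an exact test at this number of libraries.

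**Figure D3:**
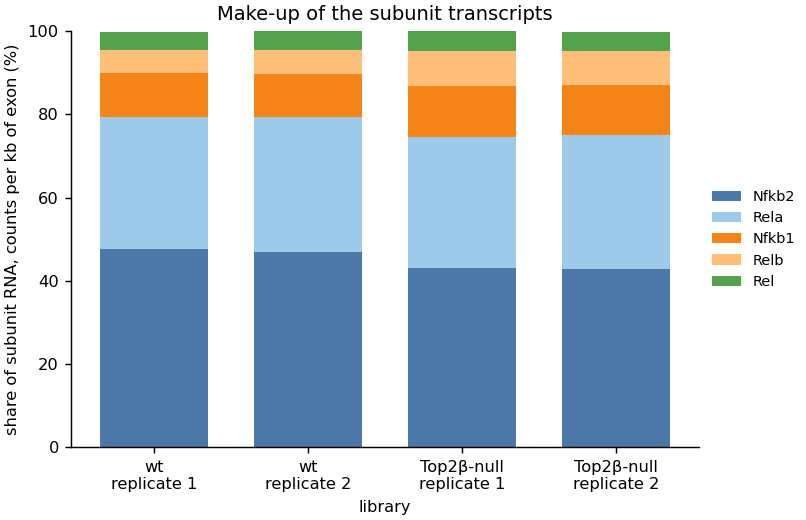
Share of each of the 5 subunit genes in their summed RNA (percent, counts per kb of exon), stacked to 100 in each library. The Nfkb2 share is 47.3% on average in wt against 43.0% in Top2β-null MEF cells, and the Relb share is 5.76% and 8.17%.

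The IκB proteins and kinases outside the 10 genes were split in direction. By the adjusted p of edgeR alone 5 were higher and 5 were lower, where 32.5% of all 26566 features were higher and 32.5% lower. Past the 3 cut-offs, 2 were higher and 1 lower, against 5.27% and 4.97% of all features, and the median log2 fold change was 0.01 against 0.0027. Nfkbid, 1 of the 5 higher, passed the filter on low counts through the Top2β-null libraries alone, which fixed its direction, and the other 9 had a median of -0.09. Bcl3, a nuclear IκB protein that acts with p50 and p52, stood at 88.8 and 80.2 normalized counts in wt and 1868 and 1898 in Top2β-null MEF cells. That is a 22.3-fold rise with no overlap (log2 fold change 4.48, SE 0.08, edgeR adjusted p = 6.3e-17). Bcl3 shares 161 exonic bases with an antisense transcript of at most 133 counts in a library. Nfkbiz, the nuclear IκBζ that is induced in inflammation, rose 4.63-fold, from 2134 and 2047 to 9684 and 9652 normalized counts (log2 fold change 2.21, SE 0.03, edgeR adjusted p = 4.6e-18). Nfkbil1, named for its likeness to IκB proteins, fell to 32.7%, from 1608 and 1553 to 513 and 520 normalized counts (log2 fold change -1.61, SE 0.06, edgeR adjusted p = 4.8e-13). Its exons overlap those of Atp6v1g2 and Gm16181 on the opposite strand, which had fewer counts in Top2β-null libraries as well (190 and 237 against 879 and 954 for Atp6v1g2). The other subunits of the IKK complex, whose values were looked up after the rest, were not called. Chuk, the kinase IKKα, had 8129 and 8090 normalized counts in wt and 12354 and 12100 in Top2β-null libraries, a rise of 0.59 on the log2 scale (edgeR adjusted p = 4.6e-12). Ikbkg, the regulatory subunit NEMO, had 7330 and 7382 against 4191 and 4412, and fell by 0.77 on the log2 scale (edgeR adjusted p = 1.9e-12). Ikbkg shares 418 exonic bases with G6pdx on the opposite strand, which had 12703 and 13481 counts in wt and 9210 and 10062 in Top2β-null libraries before normalization, and whether its reads entered the Ikbkg counts was not tested.

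Adaptors and ubiquitin regulators moved in both directions as well. Of 36 tested, 13 were higher and 16 lower by the adjusted p of edgeR, with a median log2 fold change of -0.05, and past the 3 cut-offs 2 were higher and 1 lower. These counts are near the shares of all features, which were 32.5% each way by adjusted p, and 5.27% higher and 4.97% lower by the cut-offs. Irak3, 1 of the 16, passed the filter on low counts through the wt libraries alone. Birc3, the ubiquitin ligase cIAP2 and a known NF-κB target, had 37.3 and 51.2 normalized counts in wt and 799 and 847 in Top2β-null MEF cells. It rose 18.6-fold (log2 fold change 4.21, SE 0.12, edgeR adjusted p = 2.5e-14). Nlrc5, a regulator of MHC class I genes, rose 7.58-fold, from 227 and 180 to 1573 and 1508 normalized counts (log2 fold change 2.92, SE 0.08, edgeR adjusted p = 2.4e-14). Otulin removes linear ubiquitin chains and so limits the signal. It fell to 48.6%, from 5221 and 5299 to 2608 and 2500 normalized counts (log2 fold change -1.04, SE 0.04, edgeR adjusted p = 2.7e-13). Otulin was just past the cut-off of 1, and it was not called with the counts scaled to the library totals (log2 fold change -0.97) or without Top2β-null replicate 2 (-0.99).

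Among receptors that signal to NF-κB, 18 of 20 were tested and 12 were higher and 5 lower by the adjusted p of edgeR, against 32.5% of all features in each direction, with a median log2 fold change of 1.29 against 0.0027. A mean over 100 normalized counts, which a call needs, was reached by 11 of the 18. Tnfrsf11a passed the filter on low counts through the Top2β-null libraries alone and Tlr9 through the wt libraries alone, which fixed their directions. Without them 11 receptors were higher and 4 lower, with a median of 1.29, against 30.5% and 32.4% of the 24594 features that reached 10 counts in at least 1 library of both genotypes. By the 3 cut-offs, Il1rl1, Tlr2, Il1r1, Il1rap, Tnfrsf1a and Tlr3 were called higher and Tlr4 was called lower, against 5.27% and 4.97% of all features. Il1rl1, the receptor of interleukin-33, stood at 5838 and 5763 normalized counts in wt and at 141210 and 143661 in Top2β-null MEF cells. The groups were 24.6-fold apart (log2 fold change 4.62, SE 0.03, edgeR adjusted p = 2.7e-21). Tlr2, a receptor of bacterial lipoproteins, rose 16.7-fold, from 38.4 and 42.5 to 684 and 667 normalized counts (log2 fold change 4.06, SE 0.12, edgeR adjusted p = 3.4e-14). Tlr4, the receptor of lipopolysaccharide, fell to 29.6%, from 4039 and 3979 to 1219 and 1152 normalized counts (log2 fold change -1.76, SE 0.04, edgeR adjusted p = 5.6e-15). The other called receptors had log2 fold changes of 3.76 for Il1r1, 1.79 for Il1rap, 1.46 for Tnfrsf1a and 1.14 for Tlr3.

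Ligands were mostly under the filter. Only 5 of 13 were tested, and the other 8, among them Tnf, Lta and Il1b, had at most 5 counts in any library. Of those tested, 1 was higher and 2 were lower by the adjusted p of edgeR, against 32.5% of all features in each direction, with a median log2 fold change of -0.26. The higher one, Il33, passed the filter through the Top2β-null libraries alone, which fixed its direction, and without it 0 were higher and the median was -0.60. Tnfsf12, which encodes the cytokine TWEAK, was the only ligand called, against 4.97% of all features called lower. It was also the only ligand with a mean over 100 normalized counts, which a call needs. It fell to 19.5%, from 2290 and 2248 to 411 and 471 normalized counts (log2 fold change -2.36, SE 0.06, edgeR adjusted p = 1.1e-14), and it shares 731 exonic bases with the read-through gene Tnfsfm13 on the same strand.

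Genes known as NF-κB targets were tested in 30 of 38 cases. By the adjusted p of edgeR 20 were higher and 8 lower, against 32.5% of all features in each direction, with a median log2 fold change of 0.99 against 0.0027. Of the 20, Il6, Cxcl5, Mmp3, Mmp13 and Saa3 passed the filter on low counts through the Top2β-null libraries alone, which fixed their direction. Without these 5, 15 targets were higher and 8 lower of 25, against 30.5% and 32.4% of the features that reached 10 counts in both genotypes, and the median was 0.59 against -0.0077. Past the 3 cut-offs, 9 were higher and 2 lower. Without Il6 these were 8 and 2 of the 25, against 5.07% and 5.21% of the features that reached 10 counts in both genotypes. Il6, an inflammatory cytokine, had 5.05 and 8.69 normalized counts in wt and 312 and 347 in Top2β-null MEF cells, a rise of 47.9-fold from a low level (log2 fold change 5.55, SE 0.23, edgeR adjusted p = 3.1e-12). With 5 and 9 counts in wt, Il6 was not tested when either Top2β-null library was left out, and 7 targets were then called higher, because Cxcl10 also missed the cut-off on the mean (90.5 and 95.2 normalized counts). Tnfaip6, a secreted protein of the inflamed matrix, rose 8.97-fold, from 73.7 and 93.7 to 739 and 762 (log2 fold change 3.16, SE 0.11, edgeR adjusted p = 2.1e-13). The chemokines Ccl7 and Ccl2, which attract monocytes, fell. Ccl7 went from 673 and 762 to 25.9 and 36.6 normalized counts (log2 fold change -4.51, SE 0.14, edgeR adjusted p = 8.7e-14). Ccl2 went from 3988 and 4058 to 506 and 498 (log2 fold change -3.00, SE 0.05, edgeR adjusted p = 2.6e-17). Chemokines thus went in both directions, since Cxcl1, Ccl5 and Cxcl10 were called higher with log2 fold changes of 2.05, 2.04 and 1.75. Cebpb, Ptgs2, Vcam1 and Irf1 were called higher at between 1.23 and 1.26. The 8 targets that were not tested, Icam1 and Nos2 among them, had at most 11 counts in any library.

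**Figure D4:**
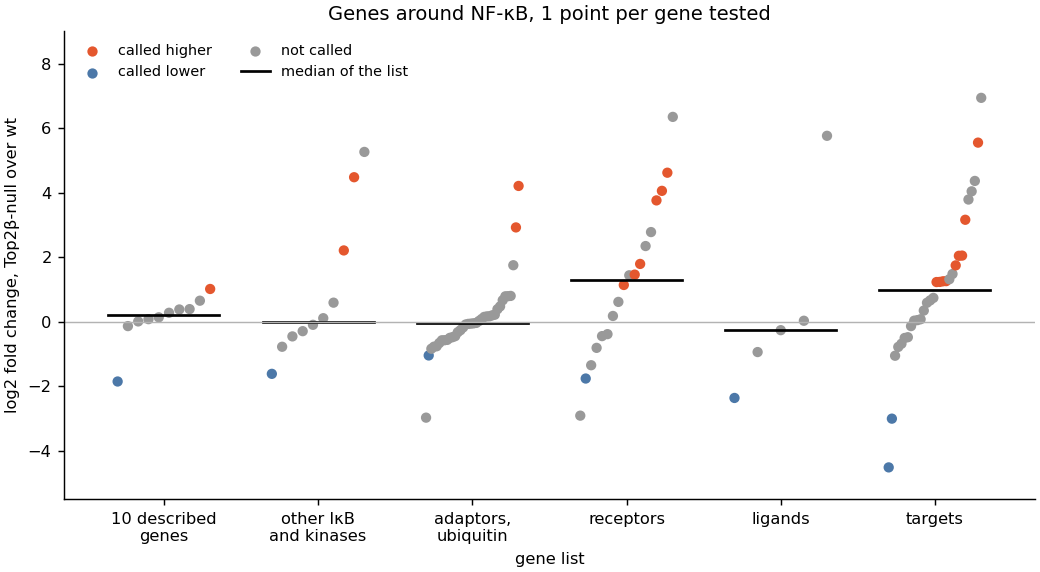
Log2 fold changes (Top2β-null over wt) of every tested gene in 6 lists, ordered within a list, in orange where called higher, in blue where called lower and in grey otherwise. Bars mark the medians, 0.21 for the 10 described genes, 1.29 for receptors and 0.99 for target genes, where 5 targets that passed the filter through the Top2β-null libraries alone are included and the median without them is 0.59.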

How the data were processed

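Per the labels and the methods of the study, reads from stranded libraries were trimmed with Trim Galore! 0.4.0, aligned to mm10 (GRCm38) with STAR 2.5.2, sorted with samtools 1.3.1 and counted with TEtranscripts 1.5.1 over Gencode M9 genes and repeat families. The deposited values are counts per gene (54842) and repeat family (1562), not normalized by the authors. TEtranscripts's mode is not given in the sources used here. Symbols, positions and lengths came from GENCODE M21 (54495 genes matched), and promoters from RefSeq.

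A feature needed 10 counts or more in 2 libraries or more, and was fitted with edgeR 4.0.16 (R 4.3.3): TMM factors over genes and repeats, quasi-likelihood test, genotype as the only term, Benjamini-Hochberg adjustment over 26566 features. The SE is the absolute log2 fold change over the square root of F. The authors used DESeq2. The fit was run on simulated counts in which few features changed, all by more than the fold cut-off. Data with many or small changes were not simulated.

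Alternatives were DESeq2 1.42.0, TMM factors of the genes alone, total-count scaling, no filter, 100 counts in every library, the adjusted p as sole cut-off, the replicate block, raw counts or coding transcripts for the shares, and leaving out each library. Named genes are the 10 members, Top2b and, per list, the 2 called genes with the largest change in each direction. The members and lists were chosen with earlier results of these data known. The replicate libraries differed by more than counting error (chi-square of 3.65 per degree of freedom for wt, 5.07 for Top2β-null). This does not show whether they came from separate cultures. Genistein-treated cells are not analysed here.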

Additional observations from a re-analysis of the deposited data

How the results depend on the processing

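Of 100 alternative values for the members, 91 kept their direction and their side of the adjusted p threshold, as did the 142 available for the 15 other named genes. Genes removed by a filter have no value there. These were Bcl3, Birc3, Tlr2, Tnfaip6, Ccl7 and Il6 with 100 counts in every library, and Il6 when either Top2β-null library was left out. The fold cut-off of 1 was missed by Nfkbie without wt replicate 1 (0.999) and by Otulin, the adaptor called lower, with total-count scaling (-0.973) and without Top2β-null replicate 2 (-0.993). With the adjusted p alone as cut-off, calls were 6 higher and 2 lower for the members, 5 and 5 for the other IκB proteins and kinases, 13 and 16 for adaptors, 12 and 5 for receptors, 1 and 2 for ligands and 20 and 8 for targets. With 100 counts in every library, 1 of the other IκB proteins and kinases, 1 adaptor, 5 receptors and 5 targets were called higher and 1 target lower. The calls lost in this setting were those of genes that the filter removed. Scaling to the total count, which moved the median of all features to 0.07, left 1 member lower by adjusted p and 0 adaptors called lower, and gave 0.081 for Nfkb2 (adjusted p = 0.011 by edgeR), 0.151 for Nfkbia (0.0019) and -0.064 for Ikbkb (0.061). Nfkbia was also past the threshold with TMM factors from genes only (0.093), no filter (0.098) and 100 counts in every library (0.087). Shares from raw counts differed by -0.685 points for Rela, 1.72 for Relb, 3.6 for Nfkb1 and -5.06 for Nfkb2, and those per coding transcript, a setting added after the data were seen, by -1.04 for Rela, 0.189 for Rel, 2.75 for Relb, 3.02 for Nfkb1 and -4.92 for Nfkb2. The cause was not tested.

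Leaving out 1 library in turn gave 0 to 1 members called higher (0 without wt replicate 1), 0 to 1 adaptors called lower (0 without Top2β-null replicate 2), 1 to 2 ligands called lower (2 without Top2β-null replicate 1), -0.011 to 0.064 for Nfkb2 (reversed without wt replicate 2, with an adjusted p of 0.031 by edgeR without Top2β-null replicate 1), 0.052 to 0.166 for Nfkbia, and -0.373 to -0.366 for the log2 ratio of Nfkb2 to Nfkb1. The lone library of a group is then taken to vary like the other group. Same-numbered replicates deviated with a correlation of 0.0197 over 17952 features. This gives no sign of a pairing, but it cannot tell whether same-numbered libraries were prepared together. The replicate block changed no call (Tnfaip3 -1.85, Nfkbie 1.016). With 2 libraries a group, depth does not limit the members, which all had means over 100 normalized counts, while ligands and targets near 0 counts were not measurable.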

Other observations

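A few genes around NF-κB were close to 0 counts in wt and clearly counted in Top2β-null MEF cells, and they missed the cut-off on the mean or were too low for a stable fold change. They were chosen after their values were seen, and the ratios of scaled counts below carry 95% exact intervals that cover counting error only. Nfkbid, the nuclear inhibitor IκBNS, had 1 and 3 counts in wt and 70 and 89 in Top2β-null MEF cells, a ratio of 40.8 with an interval from 15.6 to 151. Tnfrsf11a, the receptor RANK, had 0 and 3 counts in wt and 119 and 139 in Top2β-null MEF cells, a ratio of 88.2 with an interval from 29.8 to 431. Mmp3, a matrix protease and known NF-κB target, had 1 count in each wt library against 131 and 138, a ratio of 138 with an interval from 37.8 to 1150. Il33, the ligand of the receptor Il1rl1, had 0 and 1 counts in wt and 33 in each Top2β-null library, a ratio of 67.7 with an interval from 11.7 to 2710. These genes passed the filter on low counts through the Top2β-null libraries alone, so their direction was fixed by the choice. Fewer genes of the lists around NF-κB passed that filter through the wt libraries alone. They were Irak3 of the adaptor list (35 and 31 counts in wt against 4 in each Top2β-null library) and Tlr9 of the receptor list (48 and 46 against 5 and 7).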
